A study of Mus musculus with 2 samples.

Results

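The 10 genes described here encode WNT ligands: *Wnt2*, *Wnt2b*, *Wnt4*, *Wnt5a*, *Wnt5b*, *Wnt6*, *Wnt7b*, *Wnt9a*, *Wnt10a* and *Wnt11*. They were chosen by name, and all 10 were among the 19550 genes measured in 7808 single cells of mouse esophagus, stomach and the gastroesophageal squamo-columnar junction between them (GE-SCJ). Each level is given by the class label that the authors gave to the cells, by region and by stage; their stromal label is called fibroblast here, and their second stromal label mesothelial-like, from its marker genes. Tissue came from wild type C57BL/6 mice at embryonic day 15 (E15, 6 mice), E19 (2 mice), postnatal day 2 (pup, 2 mice) and 8 weeks (adult, 3 mice), by the series' design text, whereas the study's methods give 3 mice for each pool. Cells of several mice were pooled under 1 oligonucleotide tag per region and stage, and the tagged cells share 1 set of cell barcodes with none repeated. The 11 region and stage groups are therefore 1 pooled sample each, the adult stomach is not analysed here, and no test against the spread between mice exists. All intervals below are exact 95% intervals that cover counting error only, and a difference whose intervals do not overlap can still lie within the spread between mice.

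WNT ligands are lipid-modified secreted proteins that act over short distances through Frizzled receptors and their co-receptors. Some ligands mainly stabilise β-catenin and so keep epithelial stem and progenitor cells dividing, while others, WNT5A and WNT11 among them, mainly steer cell shape and movement. In the foregut, WNT signals pass between the mesenchyme and the epithelium while the tube is divided into its organs, and *Wnt2* and *Wnt2b* are known as mesenchymal ligands of this region.

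The members lie on 8 chromosomes of the mouse genome (GRCm38, GENCODE M21). *Wnt6* (chr1:74771892-74785322) and *Wnt10a* (chr1:74791516-74804179) are neighbours on the plus strand with 6194 bases between them, and *Wnt9a* (chr11:59306928-59333552) lies 16176 bases from *Wnt3a*. RefSeq promoter windows were at hand for 7 of the 10 members. Those of *Wnt2* (chr6:18030586-18030695, minus strand), *Wnt4* (chr4:137277385-137277488, plus strand) and *Wnt11* (chr7:98834862-98835111, plus strand; GRCm38.p6) are shown because these members passed 2-fold between esophageal and stomach fibroblasts at E19. A window holds the 250 bases before the RefSeq start. For *Wnt2* and *Wnt4*, GENCODE places the gene's start 140 and 146 bases further upstream, so only the 110 and 104 bases before that start are printed. The letters run 5′ to 3′ on the gene's strand, and capitals mark matches on either strand to GGGCGG (the GC box), to CCAAT, to TATAAA or to CTTTGAT (the TCF/LEF motif).
Wnt2: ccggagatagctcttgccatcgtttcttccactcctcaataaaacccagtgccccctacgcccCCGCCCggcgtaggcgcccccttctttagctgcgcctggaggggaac
Wnt4: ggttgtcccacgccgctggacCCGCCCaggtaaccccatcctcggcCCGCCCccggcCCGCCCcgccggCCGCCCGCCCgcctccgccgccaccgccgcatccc
Wnt11: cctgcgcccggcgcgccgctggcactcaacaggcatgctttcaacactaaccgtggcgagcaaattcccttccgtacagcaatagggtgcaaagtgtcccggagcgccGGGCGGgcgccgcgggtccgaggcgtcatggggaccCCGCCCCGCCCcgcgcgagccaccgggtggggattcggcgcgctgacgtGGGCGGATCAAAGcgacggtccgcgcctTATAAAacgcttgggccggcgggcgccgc
The whole *Wnt4* window was 85.2% G and C with 8 GC boxes, 5 of them in the printed part, the *Wnt11* window 70.8% with 4, and the *Wnt2* window 63.6% with 1. The *Wnt11* window held the single TATAAA and 1 of the 2 CTTTGAT matches among the members' windows, the other being in an internal *Wnt5b* start. Over 32851 promoter windows of this length, 32.7% held a GC box, 33.8% CCAAT, 12.4% TATAAA and 3.21% CTTTGAT.

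Read depth and the class labels were checked first. Counts are unique molecular identifiers (UMIs), and a level is a CPM value, the gene's share of all UMIs of the same cells, scaled to counts per 1000000. Cells held 519 to 79817 UMIs with a median of 10424.5, and the region and stage groups held 143 to 1403 cells. The members together had 19619 of the UMIs. Of 8 marker lists, 7 were highest in the class they name. The mesothelial list was higher in a small squamous label of 40 cells than in the mesothelial-like class, through *Upk1b* (2045 against 249 CPM) and *Msln* (881 against 331 CPM), whereas *Wt1* and *Lrrn4* had no UMI in that label and 388 and 258 CPM in the mesothelial-like class. A pericyte list was highest in the smooth muscle class, a list for interstitial cells of Cajal in fibroblasts and a subepithelial fibroblast list in squamous cells. The classes were clustered on these same counts, so levels by class are a description.

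The ligands were highest in different classes, and no class was highest for all of them. Over the pool, *Wnt4*, *Wnt7b* and *Wnt10a* were highest in squamous epithelium, *Wnt5a*, *Wnt9a*, *Wnt2b* and *Wnt5b* in mesothelial-like cells, *Wnt2* and *Wnt11* in fibroblasts and *Wnt6* in neural cells. These ranks join all stages and need not hold at each. At E15 *Wnt6* was 1.80 CPM (0.489 to 4.60) in neural cells and 10.5 CPM (6.40 to 16.2) in squamous cells. Immune cells were taken as a class that should lack these ligands, which was assumed and not tested. Their levels were 0 to 14.6 CPM over the pool. By region and stage their *Wnt4* level ran from 3.49 to 34.3 CPM, highest in the E15 esophagus. Endothelial cells had 0 UMIs of 6 members (*Wnt2*, *Wnt2b*, *Wnt6*, *Wnt7b*, *Wnt10a* and *Wnt11*), and a count of 0 in these 157 cells allows up to 2.07 CPM. When cells were instead classed by their marker UMIs, 5 of the 10 members were highest in the same class. *Wnt2b* and *Wnt9a* were then highest in fibroblasts, *Wnt5a* in smooth muscle and *Wnt5b* in squamous cells. *Wnt7b* was highest in the class set by the mesothelial list, which had 99.9 CPM of *Wnt5a*, 6.12 CPM of *Wnt9a* and 0 of *Wnt2b* and *Wnt5b*. That list holds *Upk1b* and *Msln*, which were higher in the small squamous label (2045 and 881 CPM) than in the mesothelial-like class (249 and 331 CPM). The mesothelial-like cells themselves had 7606 CPM of the fibroblast list against 2090 CPM of the mesothelial list. Each cell took the class of the list with most UMIs, so these cells can fall among fibroblasts. The part that squamous and mesothelial-like cells had in the classes so set was not tested.

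**Figure D1:**
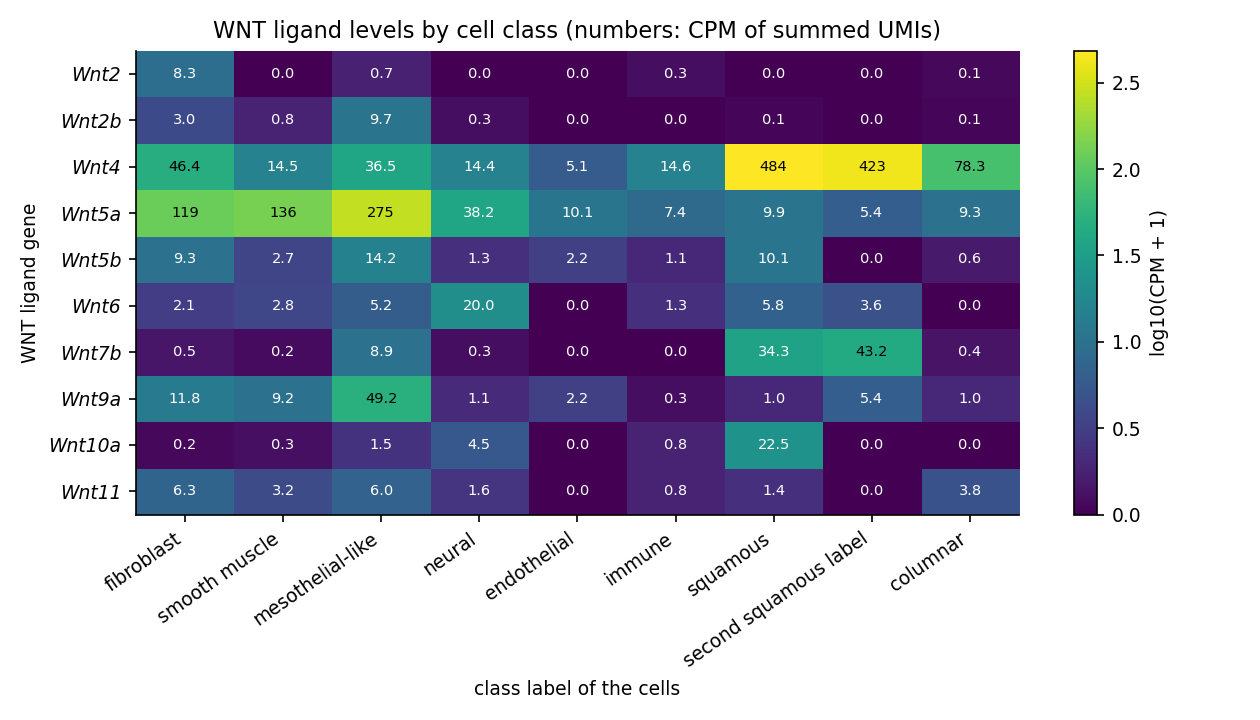
Level of each WNT ligand (rows) in each cell class (columns) over the whole pool; colour is log10(CPM + 1) and the printed numbers are CPM of summed UMIs. *Wnt4* is brightest in the squamous columns (484 and 423 CPM), *Wnt5a* in mesothelial-like cells (275 CPM), and *Wnt6* in neural cells (20.03 CPM).

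*Wnt4*, a ligand known for its part in kidney and female reproductive tract development, reached 484 CPM (470 to 497) in squamous cells and 423 CPM (371 to 481) in the small second squamous label, 2 neighbours whose intervals overlap. Columnar cells followed with 78.3 CPM (75.7 to 81.0), then fibroblasts with 46.4 and mesothelial-like cells with 36.5 CPM, which also overlap. Over the pool, smooth muscle (14.5 CPM) and neural cells (14.4 CPM) lay at the level of immune cells (14.6 CPM). By region and stage the smooth muscle level ran from 6.65 to 52.7 CPM. It was highest in the pup GE-SCJ (30 UMIs in 15 of 119 cells), whereas pup immune cells had 6.58 CPM (1.79 to 16.9). A *Wnt4* UMI was seen in 88.6% of squamous cells and 11.02% of immune cells, at median depths of 12028.5 and 8266.5 UMIs. When each cell was thinned to 2000 UMIs the shares were 54.1% and 2.21%. Of all *Wnt4* UMIs, 47.4% lay in squamous, 32.7% in columnar and 14.5% in fibroblast cells.

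*Wnt5a*, a ligand that guides tissue outgrowth, was highest over the pool in mesothelial-like cells, followed by smooth muscle and fibroblasts. It had 275 CPM (247 to 304) in mesothelial-like cells, 136 (129 to 143) in smooth muscle and 119 (115 to 123) in fibroblasts. Neural cells had 38.2 CPM (32.2 to 45.0). Columnar cells (9.35 CPM, 8.46 to 10.3), squamous cells (9.85 CPM), endothelial cells (10.1 CPM) and immune cells (7.44 CPM, 4.94 to 10.8) had overlapping intervals over the pool. In adult GE-SCJ squamous cells alone it was 19.4 CPM (13.1 to 27.6), above the interval of immune cells. Fibroblasts and smooth muscle held 60.3% and 23.1% of its UMIs.

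*Wnt2* was seen in fibroblasts and hardly anywhere else, with 269 of its 277 UMIs there (97.1%). Its level was 8.29 CPM (7.33 to 9.34) in fibroblasts against 0.139 CPM in columnar cells, and squamous, smooth muscle, neural and endothelial cells had 0 UMIs. *Wnt2b*, its close relative, had 9.68 CPM (5.16 to 16.6) in mesothelial-like cells and 2.99 CPM (2.42 to 3.65) in fibroblasts. *Wnt9a* showed 49.2 CPM (38.0 to 62.5) in mesothelial-like cells, above fibroblasts (11.8 CPM, 10.7 to 13.1) and smooth muscle (9.22 CPM, 7.50 to 11.2). *Wnt11* had 6.29 CPM in fibroblasts and 5.96 CPM in mesothelial-like cells, with overlapping intervals, and 3.77 CPM (3.21 to 4.40) in columnar cells. *Wnt5b* was shared between compartments, with 14.2 CPM (8.52 to 22.1) in mesothelial-like, 10.1 in squamous and 9.27 in fibroblast cells, 3 neighbours that overlap, against 0.555 CPM in columnar cells.

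*Wnt7b* and *Wnt10a* were highest in the squamous labels over the pool. For *Wnt7b* this rests mostly on adult cells: its squamous level had a median of 7.97 CPM over 8 samples and 73.5 CPM in the adult esophagus. In the E19 GE-SCJ, squamous cells had 2.13 CPM of *Wnt7b* and mesothelial-like cells 9.74 CPM. *Wnt7b*, which has known roles in lung and skin epithelium, had 34.3 CPM (30.8 to 38.1) in squamous cells and 43.2 CPM (27.7 to 64.3) in the second squamous label, then 8.94 CPM in mesothelial-like cells, while immune and endothelial cells had 0 UMIs. *Wnt10a*, mutated in inherited tooth and skin appendage defects, had 22.5 CPM (19.6 to 25.6) in squamous cells and 4.54 CPM (2.64 to 7.27) in neural cells, and 88.0% of its UMIs were squamous. The second squamous label had 0 *Wnt10a* UMIs, which allows up to 6.65 CPM. *Wnt6*, the chromosomal neighbour of *Wnt10a*, had 20.03 CPM (15.8 to 25.1) in neural cells and 5.81 CPM (4.42 to 7.50) in squamous cells, and 1 UMI in all columnar cells.

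Fibroblast levels of several ligands differed between the 3 regions before birth. *Wnt2* was highest in the esophagus, where its level was 19.2 CPM (15.02 to 24.1) at E15 and 22.8 CPM at E19, against 3.45 and 2.10 CPM in GE-SCJ and 0.786 and 1.21 CPM in stomach fibroblasts. Esophageal *Wnt2* was thus 24.4-fold above the stomach at E15 (8.02 to 121-fold, 73 against 3 UMIs) and 18.8-fold at E19 (9.33 to 44.4-fold, 159 against 8 UMIs). These UMIs were spread over 45 of 347 and 117 of 739 esophageal fibroblasts, with at most 5 in a cell. Without the 1% of cells with most *Wnt2* UMIs the log2 ratios were 3.37 and 3.83, against 4.61 and 4.23 with all cells. This cut was made over all fibroblasts, of which 1.54% had 2 or more *Wnt2* UMIs. Stomach fibroblasts had at most 1 in a cell, so none of them was left out and the cut could only lower these ratios. In pups *Wnt2* had 0 UMIs in esophageal and in stomach fibroblasts, and pup fibroblasts were fewer (78 to 151 cells) and shallower (medians of 3859 to 5072.5 UMIs per cell, against 9025 to 10573 before birth).

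*Wnt4* had the opposite order at E19. It was 24.1 CPM (20.6 to 28.0) in esophageal, 78.5 CPM (71.4 to 86.1) in GE-SCJ and 81.4 CPM (74.6 to 88.5) in stomach fibroblasts, so the stomach was 3.38-fold above the esophagus (2.84 to 4.04-fold) and GE-SCJ and stomach overlapped. At E15 the levels were 19.9, 41.1 and 14.9 CPM, GE-SCJ being highest. Immune cells of the E15 and E19 esophagus had 34.3 CPM (16.4 to 63.1) and 19.1 CPM (6.20 to 44.6) of *Wnt4*, so esophageal fibroblasts and immune cells had overlapping intervals at both stages. Immune cells of the E19 stomach had 11.7 CPM (6.04 to 20.4), below its fibroblasts. In pups they were 19.1, 17.8 and 82.9 CPM, but the stomach value rests on 37 UMIs in 9 of 78 cells, 23 of them in 2 cells. Those 9 cells had 7374 CPM of columnar marker genes, against 977 CPM in the other pup stomach fibroblasts, whereas at E19 the 206 stomach fibroblasts with *Wnt4* had 587 CPM and those without 702 CPM. The part of epithelial RNA in the pup value was not tested.

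*Wnt5a* was lower in esophageal than in stomach fibroblasts before birth, at 86.9 against 124 CPM at E15 and 74.1 against 137 CPM at E19, and higher in pups, at 215 CPM (180 to 254) against 150 CPM (116 to 191). The stomach-over-esophagus ratio was 1.43 (1.24 to 1.65) and 1.86 (1.66 to 2.07) before birth, and the pup esophagus-over-stomach ratio 1.43 (1.06 to 1.95). None of the 3 reached 2-fold, and with cells classed by marker UMIs the pup log2 ratio of esophagus over stomach was -0.09 in place of 0.52. That classing can place mesothelial-like cells among fibroblasts. The pup stomach had 27 mesothelial-like cells, with 626 CPM of *Wnt5a*, and the pup esophagus 6. Their part in the changed ratio was not tested. *Wnt11* was 2.62-fold higher in esophageal fibroblasts at E19 (1.48 to 4.87-fold, 6.73 against 2.57 CPM) and 1.95-fold at E15 (1.11 to 3.54-fold). Without the 1% of cells with most of its UMIs the log2 ratios were 0.90 and -0.06, against 1.39 and 0.97 with all cells. Only 0.436% of fibroblasts had 2 or more *Wnt11* UMIs, so this cut also took cells with 1 UMI, in the order in which cells were listed. It therefore cannot show whether the *Wnt11* ratios rest on a few high cells. *Wnt9a* and *Wnt5b* differed between esophagus and stomach by ratios whose intervals held equality at E19 (0.67 to 1.28 and 0.49 to 1.04). *Wnt2b* was at 4.87 against 2.72 CPM at E19, a ratio of 1.79 (0.98 to 3.37).

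The members past 2-fold between esophageal and stomach fibroblasts were set beside the share of all genes that passed. Of members with at least 50 UMIs over both groups, 1 of 5 was higher in the esophagus at E15 (*Wnt2*), beside 2.94% of 10392 genes, and 0 were higher in the stomach, beside 3.46%. At E19 2 of 7 were higher in the esophagus (*Wnt2* and *Wnt11*), beside 3.42% of 11447 genes, and 1 of 7 in the stomach (*Wnt4*), beside 5.22%. In pups *Wnt5a* alone had 50 UMIs, and 0 of 1 passed in either direction, beside 3.35% and 2.78% of 3706 genes. The median log2 ratio of all such genes was -0.12, -0.14 and -0.04 at the 3 stages. Scaling by median-of-ratios size factors, or by the mean of each cell's CPM, added *Wnt11* at E15, and leaving out the 1% of cells with most UMIs of a gene took *Wnt2* under 50 UMIs there.

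**Figure D2:**
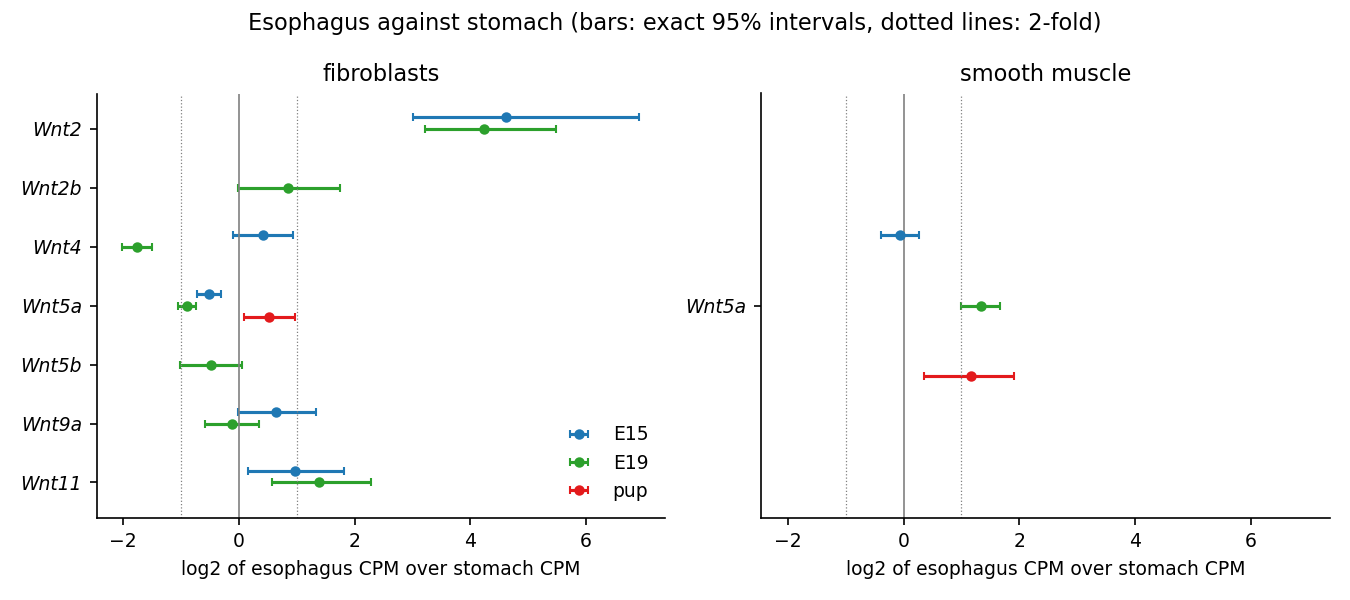
Log2 of the esophageal over the stomach level (horizontal axis) of each member with at least 50 UMIs over both groups, in fibroblasts (left) and smooth muscle (right); points are ratios of pooled samples, bars exact 95% intervals, colours stages, dotted lines 2-fold. *Wnt2* sits right of 4 at E15 and E19 and *Wnt4* at -1.76 at E19, while *Wnt5a* lies left of 0 before birth and right of it in pups in fibroblasts.

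GE-SCJ is the tissue between the other 2 regions, and its fibroblasts were set against both. Among members with at least 50 UMIs over the 3 regions, the GE-SCJ level lay between esophagus and stomach for 1 of 6 at E15 (*Wnt2*), 3 of 7 at E19 (*Wnt2*, *Wnt2b* and *Wnt4*) and 0 of 3 in pups. The same held for 44.6%, 44.7% and 36.0% of all genes. *Wnt5a* was highest in GE-SCJ at E15 (141 CPM) and E19 (144 CPM) and lowest there in pups (112 CPM), although the GE-SCJ and stomach intervals overlapped at all 3 stages. *Wnt5b* was also highest in GE-SCJ at both prenatal stages, with 11.4 and 13.1 CPM against 7.60 and 10.6 CPM in the stomach, again with overlapping intervals. Without the 1% of fibroblasts with most UMIs of a gene the E15 count was 0 of 4, and with cells classed by marker UMIs the E19 count was 5 of 8.

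Within the esophagus, pup fibroblasts had more *Wnt5a* and *Wnt9a* and less *Wnt2* than E15 fibroblasts. *Wnt5a* was 2.47-fold higher (2.01 to 3.03-fold, 215 against 86.9 CPM) and *Wnt9a* 3.16-fold (1.89 to 5.17-fold, 41.4 against 13.1 CPM). *Wnt2* was 4.01-fold lower when 3 UMIs took the place of the 0 seen, a bound that leaves out the counting error of its E15 UMIs. Without the 1% of cells with most *Wnt2* UMIs this bound was a log2 ratio of -0.76, against -2.004 with all cells. With 0 UMIs in pups, that cut could take *Wnt2* UMIs from the E15 side only. *Wnt9a* had its higher pup level in all 3 regions: 45.7 against 7.69 CPM in GE-SCJ (5.94-fold, 3.11 to 11.1-fold) and 29.1 against 8.38 CPM in the stomach (3.47-fold, 1.67 to 6.80-fold), although both fell short of 50 UMIs. In adult esophageal fibroblasts, 31 cells, *Wnt9a* was 24.8 CPM (6.75 to 63.4). *Wnt11* was 43.3 CPM there (17.4 to 89.3, 7 UMIs in 5 cells), above its 6.73 CPM (4.95 to 8.96) at E19. At E15 it was 10.2 CPM, and in pups 15.9 CPM from 10 UMIs, with an interval that overlaps the adult one.

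Past 2-fold between pup and E15 were 2 of 4 members higher in the esophagus (*Wnt5a* and *Wnt9a*), beside 9.34% of 8813 genes, and 1 lower (*Wnt2*), beside 15.4%. In GE-SCJ 0 of 2 were higher, beside 8.60% of 8724 genes, and 1 was lower, beside 17.6%. This was *Wnt4*, at 17.8 against 41.1 CPM from 7 and 155 UMIs, a log2 ratio of -1.21 that was 0.50 with cells classed by marker UMIs and -0.93 without the 1% of cells with most of its UMIs. In the stomach 1 of 2 was higher, beside 7.72% of 8948 genes, and 0 lower, beside 15.3%. This was again *Wnt4*, 5.55-fold higher (3.57 to 8.54-fold) with the cells described above. Its log2 ratio was 2.47 with all cells, 0.84 when cells under 1000 UMIs or over 10% mitochondrial UMIs were left out, and 0.61 with cells classed by marker UMIs. The median log2 ratio over all genes was -0.15, -0.20 and -0.18.

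**Figure D3:**
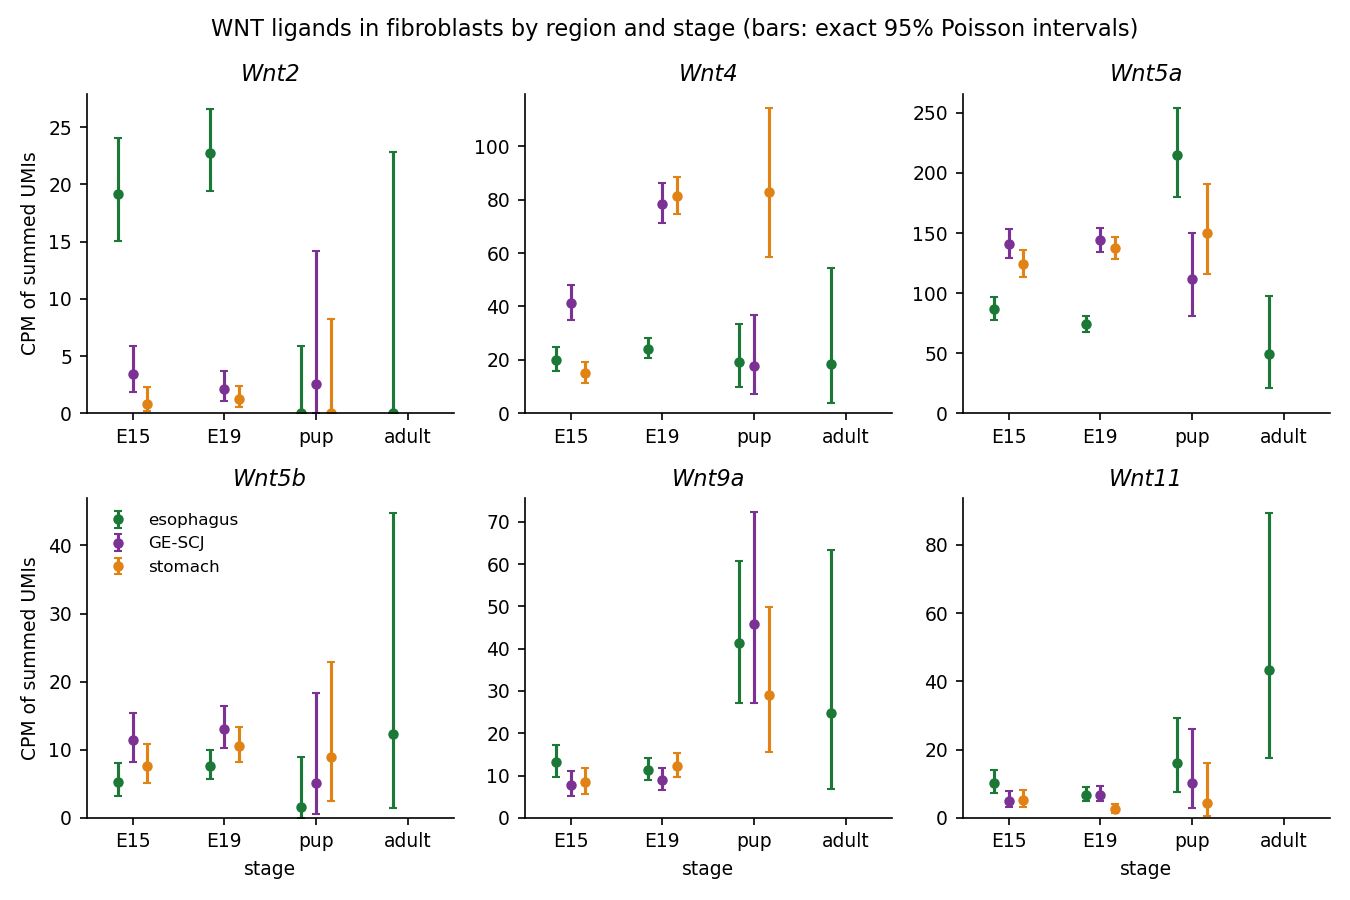
Levels (vertical axes, CPM of summed UMIs) of 6 WNT ligands in fibroblasts by stage (horizontal axes) and region (colours); each point is 1 pooled sample and bars are exact 95% Poisson intervals. *Wnt2* is highest in prenatal esophagus, *Wnt4* separates GE-SCJ and stomach from esophagus at E19, and all 3 pup points of *Wnt9a* (29.1 to 45.7 CPM) lie above all prenatal points.

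The authors' clusters split these fibroblasts further. *Wnt2* had 22.4 CPM in cluster 1, led by *Col6a5*, *Col6a6* and *Mfap5*, and 0.632 to 5.17 CPM in the other 3 fibroblast clusters. *Wnt4* had 80.1 CPM in cluster 0, led by *Ccl11* and *Col6a4*, against 14.8 to 22.3 CPM elsewhere. *Wnt5a* was 57.8 CPM in cluster 1, 124 CPM in cluster 0, 173 CPM in cluster 3, led by *Crabp1* and *Dlk1*, and 164 CPM in cluster 9, which held 12 prenatal among its 330 cells. *Wnt9a* (37.9 CPM) and *Wnt11* (15.8 CPM) were highest in this postnatal cluster 9. Different clusters filled the groups compared above. At E19, 678 of 739 esophageal fibroblasts were in cluster 1 and 528 of 701 stomach fibroblasts in cluster 0, and at E15 these were 204 of 347 and 215 of 360. Cluster 9 held 149 of 151 esophageal, 73 of 82 GE-SCJ and 60 of 78 stomach fibroblasts of pups. These clusters were drawn on the same counts, so the values are a description.

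In smooth muscle, *Wnt5a* alone had enough UMIs to compare. At E15 the esophagus had 117 and the stomach 122 CPM, a ratio of 0.96 (0.77 to 1.20). At E19 the levels were 251 CPM (207 to 301) and 99.4 CPM (85.9 to 115), a 2.52-fold difference (1.99 to 3.19-fold) in the direction opposite to fibroblasts of the same stage. With cells classed by marker UMIs the log2 ratio was 0.93 in place of 1.33, under 2-fold. In pups they were 192 and 86.0 CPM, 2.23-fold (1.28 to 3.77-fold) from 22 and 48 UMIs. Many of these esophageal cells lay among prenatal cells: without cells whose nearest neighbours were mostly prenatal, 10 of 22 esophageal and 98 of 113 stomach cells remained, the first under the minimum of 20 cells, with 158 CPM from 8 UMIs and 84.8 CPM from 40 UMIs. So 0 of 1, 1 of 1 and 1 of 1 members were higher in the esophagus at the 3 stages, beside 3.07%, 4.03% and 4.84% of genes, and 0 lower, beside 5.85%, 6.39% and 16.2%. The median log2 ratios were -0.14, 0.02 and -0.14.

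The pup smooth muscle groups were not alike in make-up. Of 22 esophageal cells 19 belonged to cluster 4, led by the contractile genes *Actg2*, *Cnn1* and *Myh11*, whereas 101 of 113 stomach cells belonged to cluster 11, led by *Enpp2* and *Rgs5*. Pericyte marker genes summed to 323 CPM in the pup esophagus and 2164 CPM in the pup stomach, but to 242 and 207 CPM at E19, where the *Wnt5a* ratio was 2.52. In adult esophageal smooth muscle, 30 cells, pericyte genes reached 3833 CPM and *Wnt5a* was 46.7 CPM (20.2 to 92.0). Their part in the pup and adult values was not tested. *Wnt4* was 47.5 CPM in cluster 11 and 10.1 CPM in cluster 4, and *Wnt6* 13.5 and 1.36 CPM.

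In squamous epithelium of the esophagus the ligands followed separate courses, with *Wnt4* high throughout. The levels by stage leave out the second squamous label. In the pup esophagus this left 56 cells and took out 29. Those 29 cells had 44.8 CPM of *Wnt7b* and 0 UMIs of *Wnt5b* and *Wnt10a*, so the pup values hold for the larger label only. *Wnt4* was 521 CPM (477 to 568) at E15, 605 (568 to 644) at E19, 321 (276 to 370) in pups and 560 (534 to 586) in adults. The adult over E15 log2 ratio of *Wnt4* was 0.10, -0.15 by the mean of each cell's CPM and 0.53 with size factors. Without the 1% of cells with most of its UMIs it was -0.03, and without the 5% with most UMIs -0.12. With cells classed by marker UMIs it was -0.17, so its sign turned with the scaling and with the choice of cells. *Wnt7b* was 4.07 CPM (1.11 to 10.4) at E15, 12.7 at E19, 5.25 in pups and 73.5 CPM (64.5 to 83.5) in adults, so the adult level was 18.1-fold above E15 (6.96 to 66.8-fold, 236 against 4 UMIs). Adult GE-SCJ squamous cells had 45.8 CPM (35.8 to 57.8). *Wnt5b* took the reverse course: 31.6 CPM (21.4 to 44.8) at E15, 17.5 at E19, 19.3 in pups and 0.623 CPM in adults. The adult *Wnt5b* level rests on 2 UMIs against 31 at E15, which was 50.6-fold lower (12.9 to 437-fold). *Wnt6* was 19.3, 9.05, 22.8 and 2.49 CPM in the same order, 7.76-fold lower in adults than at E15 (3.24 to 20.5-fold). *Wnt10a* was 21.4, 31.4, 47.3 and 28.4 CPM, and its adult and E15 intervals overlapped.

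The esophagus stood above GE-SCJ for several of these. *Wnt10a* in GE-SCJ squamous cells was 3.32 CPM at E15, 0 UMIs at E19, 22.9 CPM in pups and 11.6 CPM (6.89 to 18.4) in adults, below the esophagus at every stage, although the pup intervals overlapped. *Wnt4* was lower in GE-SCJ at E15 (364 CPM) and in adults (344 CPM), with intervals apart from those of the esophagus, and overlapped with it at E19 and in pups.

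Between adult and E15 esophageal squamous cells 1 of 3 members with 50 UMIs was higher past 2-fold (*Wnt7b*), beside 11% of 7881 genes, and 0 were lower, beside 21.4%. The median log2 ratio was -0.41. *Wnt5b* and *Wnt6* had 33 and 27 UMIs in all and were not counted. Of the adult cells 231 of 232 were in cluster 7, and of the E15 cells 59 of 64 in cluster 10. The adult cells were in another state of differentiation: *Lor*, a component of the cornified layer, was 4315 CPM in adults against 16.3 at E15. Of 2 basal keratins, *Krt15* was lower in adults (1578 against 4247 CPM) and *Krt5* higher (1312 against 912 CPM). That state and the age of the tissue cannot be told apart in this comparison.

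**Figure D4:**
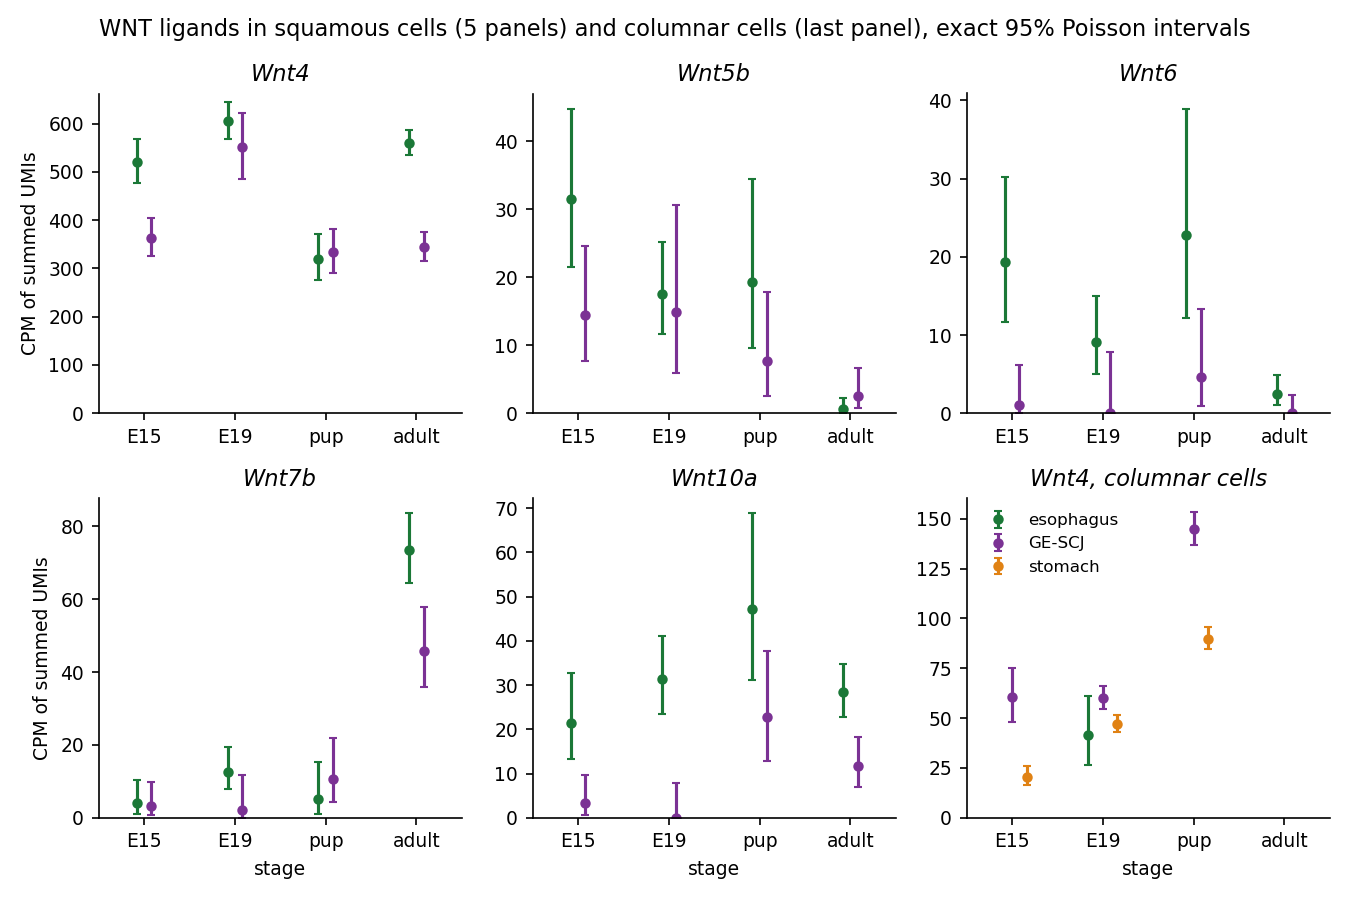
Levels (vertical axes, CPM of summed UMIs) of 5 WNT ligands in squamous cells of esophagus and GE-SCJ and of *Wnt4* in columnar cells (last panel) by stage (horizontal axes); each point is 1 pooled sample, bars are exact 95% Poisson intervals. *Wnt7b* stays at 12.7 CPM or less before the adult points (73.5 and 45.8 CPM), *Wnt5b* is lowest at the adult points, and columnar *Wnt4* is highest in pups (145 and 89.8 CPM). The squamous points leave out the second squamous label, whose 29 pup esophageal cells had 44.8 CPM of *Wnt7b*.

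Among adult esophageal squamous cells the ligands also separated by layer genes. The 232 cells were ordered by their share of UMIs from *Krt5*, *Krt14* and *Krt15*, the keratins of the basal layer, and cut into 3 bins of 77 or 78 cells. *Wnt10a* was 90.3 CPM (68.6 to 117) in the bin richest in basal keratins, 31.7 in the middle and 2.42 CPM (0.659 to 6.19) in the poorest. *Wnt7b* was 26.5, 26.3 and 118 CPM (102 to 136), highest where basal keratins were lowest and *Lor* reached 8281 CPM. *Wnt6* UMIs were 6, 2 and 0. *Wnt4* was 544, 376 and 667 CPM, so it was present in every bin. At E19 the same bins did not order the cells by layer, since the bin richest in basal keratins also had the most *Krt13*, a keratin of the layers above (12876, 4839 and 4330 CPM, against 2101, 12403 and 45735 CPM in adults), and *Lor* was 15.5 to 24.5 CPM in every bin. There *Wnt7b* was 12.9, 13.3 and 11.7 CPM with no difference beyond counting error, and *Wnt10a* was 14.4, 46.5 and 41.1 CPM, lowest in the bin richest in basal keratins. The bins hold cells of 1 pooled sample and differ in depth (median 7470, 10381 and 15653 UMIs in adults), and their values are a description.

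**Figure D5:**
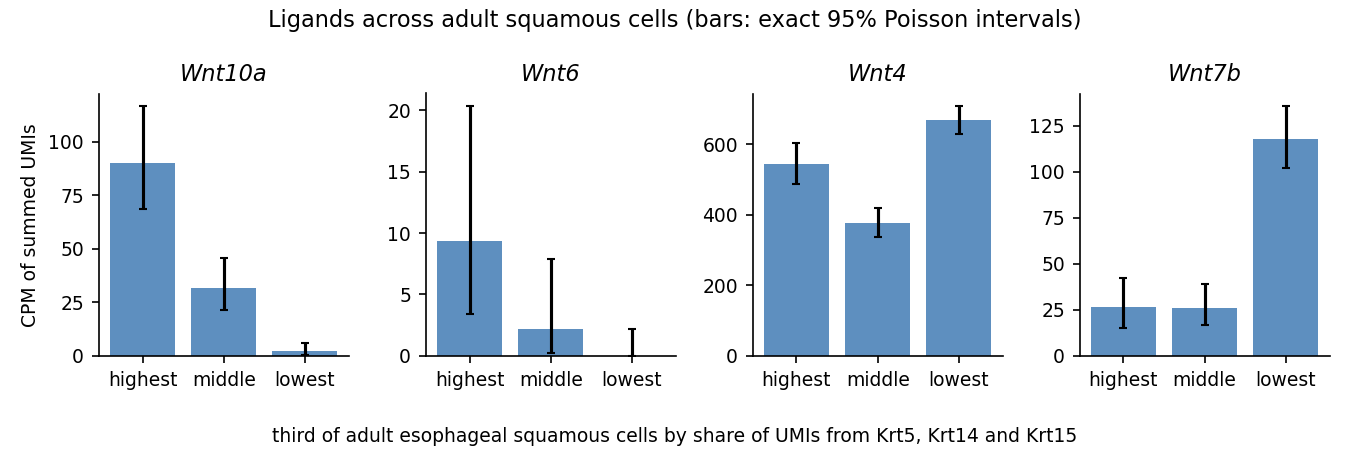
Levels (vertical axes, CPM) of 4 WNT ligands in adult esophageal squamous cells split into 3 bins by the share of UMIs from *Krt5*, *Krt14* and *Krt15* (horizontal axes, highest share at left); bars are pooled levels and error bars exact 95% Poisson intervals. *Wnt10a* goes from 90.3 to 2.42 CPM and *Wnt7b* from 26.5 to 118 CPM, left to right.

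The small second squamous label came mostly from the pup esophagus, 29 of its 40 cells. There *Wnt7b* was 44.8 CPM (26.6 to 70.8), above the 5.25 CPM (1.08 to 15.4) of the other pup esophageal squamous cells, and *Wnt4* 306 CPM, within the interval of the others. *Wnt5b* and *Wnt10a* had 0 UMIs. The label's leading genes were *Ltf*, *Clca3b* and *Prss27*.

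In columnar epithelium *Wnt4* had the highest UMI number of the members and differed by stage. Stomach columnar cells had 20.7 CPM (16.4 to 25.8) at E15, 47.1 (42.9 to 51.7) at E19 and 89.8 CPM (84.4 to 95.5) in pups, and the GE-SCJ columnar cells 60.4, 60.0 and 145 CPM (137 to 153). Immune cells of E15, over the regions, had 15.7 CPM of *Wnt4* (8.99 to 25.5), which overlaps the E15 stomach columnar value. Columnar cells of GE-SCJ exceeded those of the stomach at each stage with intervals apart. Over the pool, 61.8% of columnar *Wnt4* UMIs lay in the 154 of 1540 cells with most of them, up to 64 in a cell. The intervals do not cover such gathering of UMIs in few cells. Pups were 4.34-fold above E15 in the stomach (3.45 to 5.51-fold). *Wnt11* was 4.55 against 1.04 CPM, 4.40-fold (1.62 to 16.7-fold) from 52 and 4 UMIs, and its level was 3.02 to 3.66 CPM in GE-SCJ at all 3 stages. *Wnt5a* was 6.13 against 7.51 CPM and lay within the interval of immune cells over the pool (4.94 to 10.8 CPM). Immune cells of pups alone had 0 *Wnt5a* UMIs, which allows up to 6.07 CPM. Of 3 members with 50 UMIs 2 were higher in pups, beside 9.69% of 10789 genes, and 0 lower, beside 20.7%. The median log2 ratio was -0.37. *Wnt11* lost its call without the 5% of cells with most UMIs, where it had under 50 UMIs. In pups 220 of these 351 cells were in cluster 5 and 107 in cluster 12, while 135 of 140 cells were in cluster 2 at E15.

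In neural cells the level of *Wnt6* differed by stage. Over the regions it was 1.80 CPM (0.489 to 4.60) at E15, 34.6 (24.95 to 46.8) at E19 and 98.5 CPM (64.9 to 143) in pups. Single groups had the same order, with at most 4.81 CPM at E15, 21.1 and 42.1 CPM at E19 and 80.2 and 117 CPM in pups. *Wnt5a* was 28.7, 43.7 and 91.2 CPM in neural cells at E15, E19 and in pups.

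Mesothelium covers the outside of the stomach, and over the pool the mesothelial-like class had the highest *Wnt5a*. Its *Wnt5a* level was 137 CPM (99.1 to 184) at E15, 187 (155 to 223) at E19 and 541 CPM (469 to 620) in pups. The E15 and E19 intervals overlapped. Before birth the class was not above every other group. GE-SCJ fibroblasts had 141 CPM of *Wnt5a* at E15, and esophageal smooth muscle 251 CPM at E19. *Wnt9a* was at 70.1, 49.4 and 31.8 CPM, with overlapping intervals between neighbouring stages. These 139 cells came mostly from GE-SCJ and stomach, so region and stage were not evenly filled. The same class held the most R-spondin 1 (*Rspo1*), an amplifier of WNT signals, at 326 CPM against 7.28 CPM or less in every other class.

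The rest of the pathway gives the setting of these ligands. *Wls*, the carrier that brings every WNT ligand to the cell surface, was found in all classes, from 12.6 CPM in the second squamous label to 221 CPM in mesothelial-like cells. Between esophageal and stomach fibroblasts at E19, 5 of 8 secreted modulators with 50 UMIs were higher in the stomach, beside 5.22% of all genes, and 1 in the esophagus, beside 3.42%. *Rspo3* was 33.0 against 2.87 CPM (11.5-fold), *Dkk2*, an inhibitor, 44.6 against 5.01 CPM (8.90-fold), *Sfrp4* 5.12-fold, *Rspo2* 3.69-fold and *Sfrp2* 3.67-fold. *Rspo1* was 2.09-fold higher in the esophagus. These ratios have no adult counterpart, the adult stomach not being analysed here. In the 31 adult esophageal fibroblasts *Dkk2* was 514 CPM (409 to 637, 83 UMIs) and *Sfrp4* 179 CPM (120 to 258, 29 UMIs). *Rspo3* had 0 UMIs there, which allows up to 22.8 CPM. Of 13 receptors 1 passed, *Fzd10*, 5.98-fold higher in the stomach, beside 5.22% of all genes. Of 4 target genes 1 passed, *Nkd1*, 2.39-fold higher in the esophagus (55.3 against 23.1 CPM), beside 3.42% of all genes. *Axin2*, the most used read-out of β-catenin signalling, was 15.6 against 8.77 CPM, 1.78-fold (1.28 to 2.49-fold). At E15 0 of 5 modulators were higher in the esophagus and 2 in the stomach (*Dkk2*, 2.75-fold, and *Sfrp1*, 3.27-fold), beside 2.94% and 3.46% of all genes, with 1 of 12 receptors higher in the stomach, *Fzd5*. In pups 0 of 3 modulators and 0 of 7 receptors passed, beside 3.35% of all genes higher in the esophagus and 2.78% in the stomach. No gene of these lists passed in the same direction at all 3 stages. In esophageal squamous cells 4 of 9 receptors (*Fzd2*, *Fzd3*, *Fzd7* and *Lrp6*) and *Wls* were lower past 2-fold in adults than at E15, beside 21.4% of all genes and a median log2 ratio of -0.41, as were 2 of 2 targets with 50 UMIs, *Rnf43* and *Znrf3*. In stomach columnar cells 6 of 12 receptors were lower in pups than at E15, beside 20.7% of all genes and a median log2 ratio of -0.37.

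Of the other ligand genes measured, *Wnt16* had 269 UMIs over the pool, with its highest level in smooth muscle (13.0 CPM, 10.9 to 15.3), and *Wnt10b*, *Wnt3a* and *Wnt3* had 20, 20 and 4. The genes with the most similar levels over 55 class, region and stage groups of at least 20 cells, by Pearson r of log2(CPM + 10) among 13555 genes, were *Kera* for *Wnt2* (0.92), *Aldh1a2* for *Wnt2b* (0.85), *Ehf* for *Wnt4* (0.87), *Gas1* for *Wnt5a* (0.93) and *Lgi2* for *Wnt5b* (0.77). For *Wnt6* it was *Kcna2* (0.78), for *Wnt7b* *Alox12b* (0.94), for *Wnt9a* *Loxl1* (0.84), for *Wnt10a* *Dlk2* (0.87) and for *Wnt11* *Efcc1* (0.76). *Bhlhe22* came next for *Wnt2*. The next 2 were *Pappa2* and *Olfr1033* for *Wnt2b*, *Lad1* and *Fam83h* for *Wnt4*, *Ltbp3* and *Tceal1* for *Wnt5a*, and *Plxna1* and *Ntf5* for *Wnt5b*. They were *Gjc3* and *Ncam2* for *Wnt6*, *Cnfn* and *Csta1* for *Wnt7b*, *Bicc1* and *Adgrd1* for *Wnt9a*, *Vsnl1* and *Tmprss11a* for *Wnt10a*, and *Ctsk* and *Thbs4* for *Wnt11*. The groups share 1 library and differ in depth, and the rank of a gene moved with the measure: 4 of the 30 genes (3 for each member) stayed among the first 3 by Spearman rank and 11 with log2(CPM + 1). *Gas1* was first for *Wnt5a* by all 3 measures.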

How the data were processed

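Cells were dissociated with collagenase II, tagged by region and stage with the 10x CellPlex kit and prepared as 10x 3′ single-cell libraries. Per the labels, reads were processed by the authors with Cell Ranger 6.1.1 on mm10. The deposited values are raw UMI counts per gene and cell, after the authors removed cells of extreme gene or UMI number, as possible doublets, and cells rich in mitochondrial UMIs. The deposited cell table gives region and stage, class, cluster, total count and the percent of mitochondrial UMIs. All 7808 barcodes were unique, and tag and total count were the same in both tables. The adult stomach is not analysed here, and of the adult GE-SCJ only squamous cells (86) reached the minimum of 20 cells per group.

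UMIs were summed per class, region and stage and divided by the summed total (CPM). Intervals are exact Poisson for levels, Clopper-Pearson for shares of cells and exact conditional for ratios, all at 95%. A gene was counted when it had at least 50 UMIs over the groups compared, and called past 2-fold. A sum of 0 was set to 3 UMIs and its ratio given as a bound. No p-value was computed, since each group is 1 pooled sample. No doublet caller was run, and leaving out the 5% of cells with most UMIs was one of the alternatives. The 1% of cells with most UMIs of a gene were taken within a class over all regions and stages. Cells with equal UMIs were taken in the order in which they were listed. Shares were also taken at 2000 UMIs per cell (163 shallower cells left out). Named genes were the 10 members, the 3 genes most like each by Pearson r (1 is not reported here), the other *Wnt* genes, and WNT pathway lists (*Rspo4* is not analysed here). Pathway genes were to be named where past 2-fold the same way at all 3 stages, which none met. The pathway genes given by value and the bins of squamous cells were chosen after their values were seen. The members and lists were chosen with earlier results of these data known. Counting and intervals were tested on simulated Poisson counts of pooled groups. Such counts do not hold UMIs gathered in few cells, so the simulation cannot show that the intervals hold in these data. Python 3.11.15, NumPy 2.4.6, pandas 2.3.3, SciPy 1.17.1 and matplotlib 3.10.9 were used.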

Additional observations from a re-analysis of the deposited data

Results flagged for a closer look

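Some ratios of pooled samples pointed in opposite directions in groups under the same contrast, and these differences were not tested. The log2 ratio of *Wnt5a*, esophageal over stomach fibroblasts, was -0.52 at E15 and 0.52 in pups, a difference of -1.04. At E19 it was -0.89, a difference of -1.41 from pups. The same ratio at E19 was 1.33 in smooth muscle, a difference of -2.23 between fibroblasts and smooth muscle. *Wnt4* in fibroblasts, pup over E15, had a log2 ratio of -1.21 in GE-SCJ and 2.47 in the stomach, a difference of -3.68, from 7 pup UMIs in GE-SCJ and 37 in the stomach.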

How the results depend on the processing

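Each count of members was recomputed under changes of scaling, cells, class or threshold, and 146 of these counts stayed within 1.5 times of the reported one while 40 did not. Of single values 294 moved by less than their interval, 44 by more, and 1 ratio past 2-fold reversed: *Wnt4* in GE-SCJ fibroblasts, pup over E15, had a log2 ratio of -1.21 and of 0.50 with cells classed by marker UMIs. Of the 16 ratios under 2-fold, 8 took the other sign under at least 1 alternative (19 of 144 values). Unless named otherwise, the cause of a moved value was not tested. No analysis paired by mouse was possible because each region and stage is 1 pooled sample with no replicate number, and for the same reason no replicate could be left out. A fit that takes stages as pairs of regions was not made.

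By the mean of each cell's CPM, 2 members passed between esophageal and stomach fibroblasts at E15 and 2 were between in GE-SCJ at E15; with size factors the first count was 2. Without the 1% of cells with most UMIs of a gene, 0 passed between esophageal and stomach fibroblasts at E15, 0 between pup and E15 in GE-SCJ, 1 in columnar cells, and 0 were between in GE-SCJ at E15. Without the 5% of cells with most UMIs, 1 passed in columnar cells and 2 were between at E15. Without cells among neighbours from the other side of birth, pup esophageal smooth muscle had too few cells for a value. Without shallow or mitochondria-rich cells, 0 passed between pup and E15 in stomach fibroblasts. With cells classed by marker UMIs, 0 passed in smooth muscle at E19, 5 were between in GE-SCJ at E19 and 1 in pups, and 5 members were highest in the class given.

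The share of all genes was taken only under the reported settings. The counts under the alternatives, above and below, therefore have no such share beside them and cannot be set against one. A fold of 1.5 gave 3 members at E15 and 5 at E19 between esophageal and stomach fibroblasts, and a fold of 3 gave 0 between pup and E15 in GE-SCJ and 0 in smooth muscle at E19 and in pups. With any UMI number allowed, the counts were 2 at E15 and 3 in pups between esophageal and stomach fibroblasts, 5 in GE-SCJ and 3 in the stomach between pup and E15, 3, 3 and 2 in smooth muscle, 5 in squamous cells, and 3 at E15 and 2 in pups between in GE-SCJ. With at least 200 UMIs, fewer genes being tested, they were 0 at E15 and 1 at E19 between esophageal and stomach fibroblasts, 1 in esophagus, 0 in GE-SCJ and 0 in stomach between pup and E15, 0 in pup smooth muscle, 1 in columnar cells, and 0 at E15 and 1 at E19 between in GE-SCJ. Of the 30 genes most like a member, 4 were kept by Spearman rho and 11 with log2(CPM + 1). Pup groups and adult fibroblasts rest on few UMIs, which sets their intervals.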
